A study of Mus musculus with 8 samples.

Results

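The mitochondrial ribosomal protein genes of mouse colon were described across RNA sequencing libraries of 2 groups with colitis. The members are all genes of the deposited table whose symbol begins with Mrpl or Mrps followed by a digit, 78 of 18262 genes: 49 carry a large subunit symbol (Mrpl) and 29 a small subunit symbol (Mrps). The DSS + GAA group holds 4 libraries of colon from WT mice given DSS and, at 20 mg/kg, GAA. DSS is dextran sulfate sodium, a sulfated sugar polymer that damages the lining of the colon, and GAA is ganoderic acid A, one of the triterpenoids made by Ganoderma fungi. The DSS group holds 4 libraries of colon from WT mice given DSS and no GAA. Colitis is therefore shared by both groups, and tissue of mice without DSS was not analysed here. The replicates are numbered 1, 2, 4 and 5 in both groups. The labels give no age, sex or duration, and do not state whether libraries come from separate animals; p-values then measure only the spread among these libraries, which may be technical.

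Mitochondria hold their own ribosome, which is built from RNAs of the mitochondrial genome and from proteins that the nucleus encodes, the cytosol makes and the organelle imports. It makes the few membrane proteins of the respiratory chain and ATP synthase that mitochondrial DNA encodes, while the cytosolic ribosome makes nearly everything else. Some of its proteins descend from the bacterial ribosome and others are found in mitochondria only. In the colon, mature absorptive epithelium is rich in mitochondria and burns butyrate there.

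Levels are TPM, reads scaled by transcript length and then to the same total in each library. All 78 members had at least 1 TPM in every library, and all passed the filter for testing. Single values ran between 3.48 and 239.8 TPM, and the median member averaged 34.1 TPM over the 8 libraries. Most members lay close together: 51 averaged between 20 and 60 TPM, 18 lay below and 9 above, of which 5 exceeded 100 TPM. The 3 highest were Mrpl42, Mrps21 and Mrps6, and the 3 lowest were Mrps26, Mrpl57 and Mrps16.

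The levels of mitochondrial ribosomal protein RNA were close in the 2 groups. Summed over the 78 members, the DSS + GAA libraries held 2265, 3035, 3799 and 3725 TPM in replicates 1, 2, 4 and 5, against 3421, 3497, 3431 and 2752 TPM in the DSS libraries. The groups overlapped, and the means were 3206 ± 716 TPM in DSS + GAA and 3275 ± 350 TPM in DSS (SD, n = 4 each), or 0.321% and 0.328% of all transcripts. The lowest sum of all was that of DSS + GAA replicate 1 and the highest that of DSS + GAA replicate 4.

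Tested gene by gene with limma on log2(TPM + 1), 1 member rose in DSS + GAA (Mrpl14), 1 fell (Mrpl52), and 76 did not pass an adjusted p of 0.05. Over all 14217 tested genes, 34.1% passed, 5.96% as higher and 28.2% as lower in DSS + GAA. Among the members, 2.56% passed, well below the share of all genes. At an unadjusted p under 0.05, 2 members were higher and 5 lower, 8.97% of the members, against 46.0% of all tested genes. Of the 78 log2 fold changes, 18 were positive and 60 negative, and 76 were smaller than 0.5 in size.

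The median log2 fold change of the members was -0.12, against -0.25 for all tested genes, so 61 members lay above the median gene and 17 below it. The median 95% confidence interval of a member reached 0.44 to either side of its fold change, and 74 of 78 intervals stayed within 1 on the log2 scale. A member whose interval stayed within 1 could still have differed by about 0.5 without passing. The interval lay wholly above the all-gene median for 6 members (Mrpl14, Mrps21, Mrpl10, Mrps36, Mrpl27 and Mrpl24) and wholly below it for Mrpl52.

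**Figure D1:**
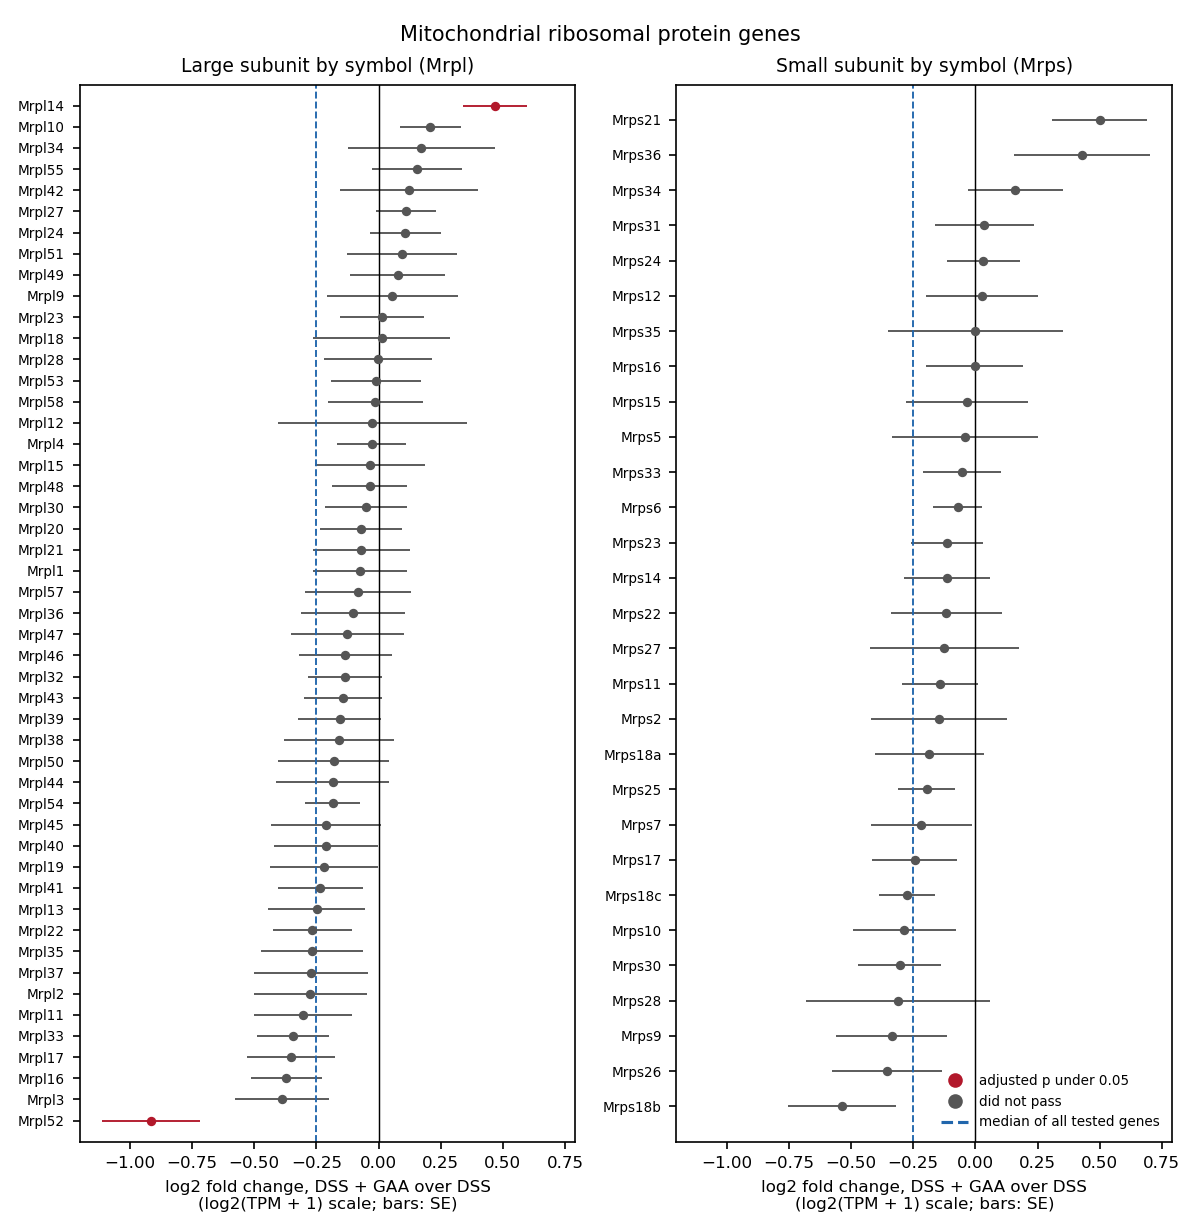
Log2 fold change of each member, DSS + GAA over DSS, on the log2(TPM + 1) scale, with large subunit symbols on the left and small subunit symbols on the right. Bars are standard errors, and the dashed line is the median of all tested genes at -0.25. Mrpl14 and Mrpl52 are the 2 members in red that passed an adjusted p of 0.05.

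Mrpl14 encodes the counterpart of bacterial ribosomal protein L14, which sits on the face of the large subunit that meets the small one. Its gene (ENSMUSG00000023939) lies on the plus strand at chr17:45686322-45698495 of GRCm38. It had 29.6, 31.2, 38.7 and 33.7 TPM in the DSS + GAA libraries 1, 2, 4 and 5, against 20.1, 25.4, 24.1 and 25.4 TPM in the DSS libraries. All 4 DSS + GAA libraries lay above all 4 DSS libraries, replicate 1 included, although that library was the lowest for most other members. The means were 33.3 ± 4.0 TPM in DSS + GAA and 23.8 ± 2.5 TPM in DSS (SD, n = 4 each). The log2 fold change was 0.47 ± 0.13 (SE; limma adjusted p = 0.0227), and the two-sided exact permutation test gave p = 0.0286, the smallest that 4 libraries against 4 allow. The call rests on the full set of libraries: the limma adjusted p was 0.0515 without DSS + GAA replicate 2, 0.0596 without replicate 4, 0.0507 without replicate 5 and 0.0712 without DSS replicate 1. It was also 0.0524 once trends with length and GC were removed, where 0 members were higher and 5 lower, beside 5.67% of genes higher and 28.3% lower. Exons of Mrpl14 overlap exons of Tmem63b on the other strand, and the labels do not say whether strand was kept, so reads of the overlap cannot be assigned. Tmem63b itself had 39.1 ± 5.5 TPM in DSS + GAA and 36.6 ± 1.8 TPM in DSS (SD, n = 4 each; log2 fold change 0.08, limma adjusted p = 0.633).

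Mrpl52 encodes a large subunit protein with no bacterial counterpart. Its gene (ENSMUSG00000010406) lies on the plus strand at chr14:54426909-54429756 of GRCm38. It had 19.5, 26.3, 35.9 and 34.2 TPM in the DSS + GAA libraries, against 53.7, 66.1, 49.2 and 48.6 TPM in the DSS libraries. The groups did not overlap, and even the highest DSS + GAA library stayed under the lowest DSS library. The means were 28.9 ± 7.6 TPM in DSS + GAA and 54.4 ± 8.1 TPM in DSS (SD, n = 4 each). The log2 fold change was -0.91 ± 0.20 (SE; limma adjusted p = 0.0105; exact permutation p = 0.0286), the largest in size of all 78 members. It passed without each library in turn (limma adjusted p 0.00523 to 0.0389) but not under median centring (-0.61, limma adjusted p = 0.0557). Mmp14, a membrane-bound matrix metalloproteinase gene, lies 1856 bases from Mrpl52 on the same strand and fell as well, with 30.8 ± 7.5 TPM in DSS + GAA and 84.3 ± 24.8 TPM in DSS (SD, n = 4 each; log2 fold change -1.41, limma adjusted p = 0.00554). The part of this neighbour in the Mrpl52 value was not tested.

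The upstream sequences of these genes are shown because they are the members that passed, and they differ in the motif that was commonest among members. Each is the 150 bases before the RefSeq start site in GRCm38.p6, read 5′ to 3′ on the gene's strand, with matches to CCGGAAG, a core letter string of the ETS family that includes GABPA, in capitals on either strand. Mrps21, the member with the largest positive fold change, is added for comparison. Coordinates are chr17:45686199-45686348 for Mrpl14, chr14:54426759-54426908 for Mrpl52 and chr3:95871515-95871664 on the minus strand for Mrps21.
Mrpl14: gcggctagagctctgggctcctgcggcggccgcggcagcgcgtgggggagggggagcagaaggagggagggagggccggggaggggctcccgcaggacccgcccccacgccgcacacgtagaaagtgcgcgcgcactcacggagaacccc
Mrpl52: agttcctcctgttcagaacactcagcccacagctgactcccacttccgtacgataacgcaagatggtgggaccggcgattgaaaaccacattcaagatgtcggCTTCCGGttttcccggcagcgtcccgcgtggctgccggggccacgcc
Mrps21: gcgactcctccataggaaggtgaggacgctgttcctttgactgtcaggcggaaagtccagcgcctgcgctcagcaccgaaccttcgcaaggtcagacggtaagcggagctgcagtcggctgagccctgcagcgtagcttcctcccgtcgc
The Mrpl52 stretch held 1 match, beginning 47 bases before the start on the reverse strand, and the stretches of Mrpl14 and Mrps21 held none. Beyond the stretches shown, Mrpl52 had another match 2 bases after its start and Mrps21 had a match 18 bases after its start.

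Promoter windows of 250 bases before to 50 bases after the start were found in the RefSeq table for 69 of the 78 members. CCGGAAG was present on either strand in 26 of the 69 windows (37.7%), against 18.4% of 11040 windows of tested genes. AGATGGC, the core of the YY1 motif, was in 12 (17.4%, against 8.08%), and GCATGCG, the core of the motif of NRF1, a regulator of nuclear genes for mitochondria, was in 8 (11.6%, against 6.81%). The TATA box string TATAAAA was in 4 (5.80%, against 3.60%). At least 1 of the first 3 strings was in 38 windows (55.1%, against 29.6%); each string was searched alone, and a window may hold more than 1. The ETS string was in 15 of 43 large subunit windows and in 11 of 26 small subunit windows. Members with the ETS string had a median log2 fold change of -0.10, and members without it -0.13.

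Mrps21 and Mrps36 had fold changes near that of Mrpl14 without passing. Mrps21, the counterpart of a small protein of the bacterial small subunit, was the most abundant member in DSS + GAA, though not in DSS, and had 145, 191, 212 and 239.8 TPM in DSS + GAA, against 138, 145, 166 and 104 TPM in DSS. Its DSS + GAA replicate 1 lay inside the DSS range and its other 3 libraries above it, and the log2 fold change was 0.50 ± 0.19 (SE; limma adjusted p = 0.0695; exact permutation p = 0.0571). Mrps36, whose symbol names the small subunit but whose protein is known as a subunit of the 2-oxoglutarate dehydrogenase complex of the citric acid cycle, had 22.1, 37.3, 44.1 and 52.4 TPM in DSS + GAA, against 29.7, 27.3, 36.3 and 19.1 TPM in DSS. Its groups overlapped in replicate 1, and the log2 fold change was 0.43 ± 0.27 (SE; limma adjusted p = 0.248). The annotation holds 3 processed pseudogenes of Mrps36, so its reads may be shared among copies. With DSS + GAA replicate 1 left out, both passed, Mrps21 at 0.64 (limma adjusted p = 0.0146) and Mrps36 at 0.67 (limma adjusted p = 0.0295).

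At the lower end, 4 members lay just outside the threshold. Mrpl16, a core protein of the large subunit, had 28.4, 33.9, 40.5 and 40.4 TPM in DSS + GAA, against 49.9, 50.9, 43.1 and 41.3 TPM in DSS. The groups did not overlap but nearly touched, and the log2 fold change was -0.37 ± 0.14 (SE; limma adjusted p = 0.0713). Mrpl33, which has a bacterial counterpart, had a log2 fold change of -0.34 ± 0.14 (SE; limma adjusted p = 0.0896). Groups were fully apart for 4 members (Mrpl52, Mrpl14, Mrpl16 and Mrps18c), against 32.9% of all tested genes.

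**Figure D2:**
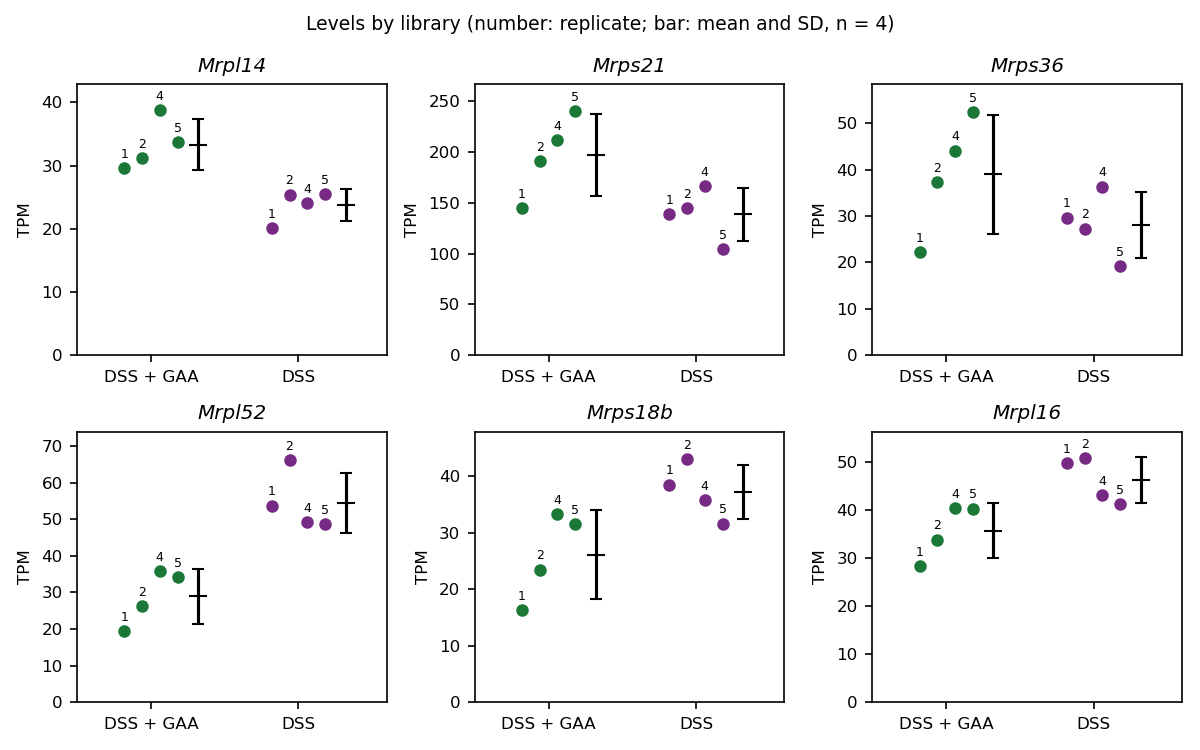
TPM of 6 members in each library, with DSS + GAA on the left and DSS on the right of each panel, replicate numbers beside the points, and bars for mean and SD (n = 4). Mrpl14 lay between 29.6 and 38.7 TPM in DSS + GAA, above all DSS libraries, and Mrpl52 between 19.5 and 35.9 TPM, below all DSS libraries.

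Mrps18a, Mrps18b and Mrps18c are homologs of bacterial protein S18, and structures of the mammalian ribosome place them at different sites: Mrps18c at the place of the bacterial protein, Mrps18b elsewhere in the small subunit and Mrps18a in the large subunit. Mrps18c had 111, 126, 130.4 and 108 TPM in DSS + GAA, against 149, 154, 135 and 138 TPM in DSS. Its groups did not overlap, with a log2 fold change of -0.27 ± 0.11 (SE; limma adjusted p = 0.0843). Mrps18b had 16.3, 23.5, 33.3 and 31.5 TPM in DSS + GAA, against 38.6, 43.0, 35.8 and 31.6 TPM in DSS, and its log2 fold change was -0.54 ± 0.22 (SE; limma adjusted p = 0.0833). Mrps18a had 19.8, 32.3, 35.3 and 40.7 TPM in DSS + GAA, against 37.8, 38.8, 38.9 and 27.5 TPM in DSS, with a log2 fold change of -0.19 ± 0.22 (SE; limma adjusted p = 0.536). All 3 were lower on average in DSS + GAA and none passed. Over the 8 libraries, Pearson's r on the log2 scale was 0.84 between Mrps18a and Mrps18b, 0.73 between Mrps18b and Mrps18c and 0.39 between Mrps18a and Mrps18c.

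Other members at the ends of the range, or with a named place in the ribosome, did not pass. Mrpl42 had 179.6 ± 60.6 TPM in DSS + GAA and 159.9 ± 34.4 TPM in DSS (SD, n = 4 each; log2 fold change 0.12). Mrps6, the counterpart of bacterial S6, was among the steadiest, with 154 ± 7.0 TPM in DSS + GAA and 162 ± 6.8 TPM in DSS (SD, n = 4 each; log2 fold change -0.07). The 3 members of lowest level were also close: Mrps26 had 6.14 ± 2.05 and 7.84 ± 0.46 TPM, Mrpl57 had 6.96 ± 1.62 and 7.42 ± 1.79 TPM, and Mrps16 had 8.24 ± 2.25 and 8.07 ± 0.76 TPM in DSS + GAA and DSS (SD, n = 4 each). Mrps30, which structures place in the large subunit despite its symbol, had 13.7 ± 3.0 TPM in DSS + GAA and 16.9 ± 2.0 TPM in DSS (SD, n = 4 each; log2 fold change -0.30, limma adjusted p = 0.183).

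In the stalk of the large subunit, where translation factors dock, Mrpl10 had a log2 fold change of 0.21, Mrpl11 of -0.30 and Mrpl12 of -0.03. Mrpl12 was the least even of the abundant members, with 30.6, 69.8, 116 and 107 TPM in DSS + GAA, against 77.2, 91.5, 75.3 and 54.1 TPM in DSS. Its DSS + GAA libraries spanned both sides of the whole DSS range. Around the exit of the peptide tunnel, Mrpl22 had a log2 fold change of -0.27, Mrpl23 of 0.01 and Mrpl24 of 0.11, and Mrpl45, which tethers the ribosome to the inner membrane, of -0.21. Mrps12, which lies at the decoding centre, had 0.03, and Mrpl58, a peptidyl-tRNA hydrolase built into the large subunit, had -0.01. Mrpl3 (-0.39), Mrpl44 (-0.18) and Mrps22 (-0.12), whose human counterparts are mutated in inherited mitochondrial disease, did not pass either.

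The relation between large and small subunit levels was alike in both groups. The mean log2(TPM + 1) of the 49 large subunit members exceeded that of the 29 small subunit members by 0.201, 0.172, 0.134 and 0.145 in the DSS + GAA libraries, against 0.170, 0.185, 0.143 and 0.168 in the DSS libraries. The libraries of both groups were interleaved. The mean difference was 0.163 ± 0.030 in DSS + GAA and 0.167 ± 0.017 in DSS (SD, n = 4 each), which differ by much less than either SD. The median log2 fold change was -0.10 for large subunit members, of which 12 were positive, and -0.12 for small subunit members, of which 6 were positive. Both called members carry large subunit symbols, and none of the 29 small subunit members passed.

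Assigning members by structure instead of by symbol left this relation in place. With Mrps18a and Mrps30 moved to the large subunit and Mrps36 left out, large exceeded small by 0.114 ± 0.032 in DSS + GAA and 0.113 ± 0.018 in DSS (SD, n = 4 each). The 45 members with a bacterial counterpart had a median log2 fold change of -0.08, with Mrpl14 as their only call, and the 32 mitochondria-specific members had -0.14, with Mrpl52 as theirs. Mrps18a and Mrps18b, homologs of bacterial S18 that lie away from its place, were counted as mitochondria-specific. Neither class held more than 1 call. The 5 mitoribosomal proteins with other symbols gave 0 calls with limma, 0 higher and 0 lower, and ran between -0.33 for Ptcd3 and -0.03 for Gadd45gip1. Among them, Dap3 of the small subunit had 19.3 ± 4.9 TPM in DSS + GAA and 23.8 ± 3.3 TPM in DSS (SD, n = 4 each).

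**Figure D3:**
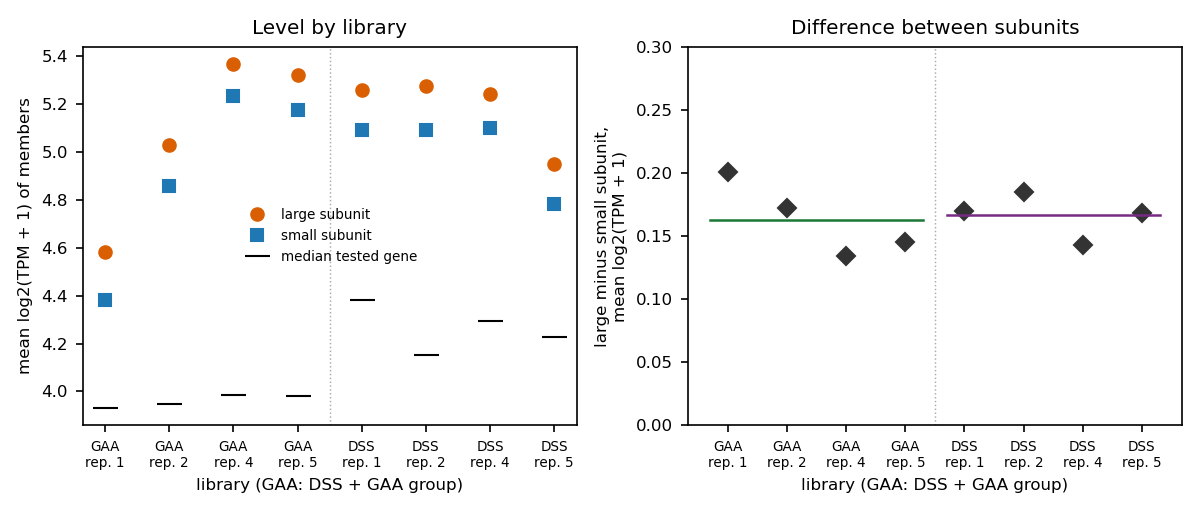
Left, mean log2(TPM + 1) of large and small subunit members and the median tested gene in each library. Right, the large minus small difference, with a line at each group mean. Both subunits are low together in DSS + GAA replicate 1 and DSS replicate 5, and the difference stays between 0.134 and 0.201 in all 8 libraries.

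Differences between libraries of 1 group were larger than the difference between groups. The mean log2(TPM + 1) of the members was 4.51, 4.96, 5.32 and 5.26 in the DSS + GAA libraries, against 5.20, 5.21, 5.19 and 4.89 in the DSS libraries. DSS + GAA replicate 1 was the lowest of the 8 libraries for 71 of 78 members, and for 29.8% of all tested genes. It lay below all 4 DSS libraries for 73 members. The 7 members with their lowest value elsewhere were Mrpl10, Mrpl14, Mrps6, Mrps18c, Mrps21, Mrps30 and Mrps36. DSS replicate 5 was the lowest DSS library for 68 members, while DSS + GAA replicate 4 or 5 was the highest of all for 50.

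Some other gene groups were low in the same library and others were high. All 76 cytosolic ribosomal protein genes had their lowest value in DSS + GAA replicate 1. The 14 markers of proliferating cells summed to 212, 278, 551 and 343 TPM in the DSS + GAA libraries, against 445, 653, 467 and 231 TPM in the DSS libraries, so replicate 1 of DSS + GAA and replicate 5 of DSS were the lowest of their groups there too, and limma called 0 of the 14, either higher or lower. Marker sums of other cell types were highest of their group in DSS + GAA replicate 1, with 2343 TPM for macrophages (515 to 1439 TPM in the other DSS + GAA libraries), 3753 TPM for smooth muscle (1531 to 2788), 1275 TPM for fibroblasts (357 to 790) and 3225 TPM for B and plasma cells (882 to 2115). Goblet cell markers (25813 TPM, against 13353 to 21225) and colonocyte markers (9859 TPM, against 6416 to 8982) were highest there too. The sum of the epithelial markers was the lowest of the group there, at 22690 TPM. In DSS replicate 5, smooth muscle markers summed to 5237 TPM, against 1895 to 3058 TPM in the other DSS libraries. Goblet cell markers (18051 TPM, against 7099 to 14459) and colonocyte markers (9300 TPM, against 4881 to 7745) were also the highest of DSS there. Fibroblast markers (1474 TPM) and macrophage markers (1017 TPM) were the lowest of DSS in that library. In bulk tissue, fewer cells of a type and less RNA per cell cannot be told apart, and the part of any of these cells in the members' levels was not tested. With DSS + GAA replicate 1 left out, the median log2 fold change of the members was 0.06, against -0.21 for all genes tested in that fit, and 47 members were positive. In that fit, 3 members were higher (Mrps36, Mrpl14 and Mrps21) and 1 was lower (Mrpl52), beside 9.05% of genes higher and 31.4% lower. With DSS replicate 5 left out as well, a setting added after seeing the data, the median was -0.03, and the same 4 members passed in the same directions, beside 9.08% of genes higher and 28.9% lower.

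RNA of cell type markers differed between the groups. The 10 neutrophil markers summed to between 198 and 719 TPM in DSS + GAA and between 2147 and 6514 TPM in DSS, with 8 of 10 lower. Neuron and glia markers (9 of 10), endothelial markers (5 of 8), fibroblast markers (3 of 8) and erythroid markers (5 of 5) were lower in DSS + GAA, with no marker higher. Over all tested genes, 28.2% were lower and 5.96% higher, so the fibroblast count, at 37.5%, was not far from that of all genes. T cell markers (6 of 7) and epithelial markers (3 of 11) were higher, and the epithelial sum was 22690 to 24577 TPM in DSS + GAA and 14706 to 18010 TPM in DSS. Goblet cell markers (3 higher of 8) and colonocyte markers (4 higher and 1 lower of 10) went mostly the same way. Limma called 0 of 8 smooth muscle and 0 of 6 B and plasma cell markers in either direction, and 1 of 8 macrophage and 1 of 2 adipocyte markers as lower. The macrophage share, 12.5%, was below that of all genes. Markers of the labelled tissue were abundant in every library. The part of these shifts in the members' values was not tested.

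The members varied together across libraries. Over all 8 libraries, the median Pearson's r of a member with the mean of the other members was 0.91 on the log2 scale, and 47 members exceeded 0.9. These values are a description, since the libraries share 1 scaling each and the low library takes part in every value. The median over all 3003 pairs was 0.81, with 0.82 between large subunit members, 0.77 between small subunit members and 0.81 across subunits. The same median was 0.96 for pairs within the large cytosolic subunit and 0.87 for nuclear genes of the respiratory chain.

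Mrpl40 and Mrpl45 followed each other most closely, with r = 0.999. Only 5 members had r under 0.5 with the rest: Mrpl14 (0.02), Mrps6 (0.32), Mrps18c (0.38), Mrpl10 (0.44) and Mrps21 (0.45). Mrpl14 was both the member called higher and the one that followed the family least. Both descriptions use the same 8 libraries, so they are not separate findings. The genes outside the family that were most like its mean over the 8 libraries were Prdx3, a mitochondrial peroxidase (r = 0.997), Tmem183a (0.994), Phb, a scaffold protein of the inner membrane (0.994), Eif3l, a subunit of a cytosolic initiation factor (0.993), and Mthfd1, an enzyme of folate metabolism (0.991).

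Mrpl46 and Mrps11 lie head to head on chromosome 7, and their shared start region is shown as the one place where a large and a small subunit gene face each other. The RefSeq starts leave 41 bases between them, chr7:78783090-78783130 of GRCm38.p6, given on the plus strand.
Mrpl46-Mrps11: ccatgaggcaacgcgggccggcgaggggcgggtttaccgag
Mrpl46 had 35.2 ± 9.7 TPM in DSS + GAA and 37.7 ± 2.9 TPM in DSS, and Mrps11 had 26.4 ± 4.5 TPM in DSS + GAA and 29.1 ± 3.6 TPM in DSS (SD, n = 4 each). Their log2 fold changes were -0.13 and -0.14, neither passed, and r between them was 0.82, close to the median of all pairs. In GENCODE their exons overlap, so without strand some reads cannot be assigned to 1 of them. Such overlaps are common in the family: exons of 33 members overlap another gene, on the opposite strand for 28. Members lie on 17 chromosomes, with 11 of them on chromosome 11, and their median transcript length was 1327.5 bases, against 3061 bases for tested genes.

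Other genes of mitochondrial translation also gave few calls, beside 34.1% of all tested genes called. Of 19 translation factors, 0 rose and 1 fell in the limma test: Mtrf1, a release factor, with 5.05 ± 1.30 TPM in DSS + GAA and 7.88 ± 1.00 TPM in DSS (SD, n = 4 each; log2 fold change -0.57, limma adjusted p = 0.0433). Of 26 genes for ribosome assembly and ribosomal RNA modification, 0 rose and 2 fell. Malsu1, whose protein binds the Mrpl14 protein during assembly of the large subunit, had 6.43 ± 0.98 TPM in DSS + GAA and 9.28 ± 1.22 TPM in DSS (SD, n = 4 each; log2 fold change -0.47, limma adjusted p = 0.0446). Dhx30, an RNA helicase, had 10.1 ± 0.8 TPM in DSS + GAA and 13.7 ± 1.3 TPM in DSS (SD, n = 4 each; log2 fold change -0.41, limma adjusted p = 0.0339). These 3 calls depend on the libraries and the scaling used. Mtrf1 passed in 8, Malsu1 in 8 and Dhx30 in 9 of 21 other settings, with limma adjusted p up to 0.529, 0.744 and 0.656, all 3 under quantile normalization. Mtrf1 kept its call only without DSS + GAA replicate 4 among the libraries left out in turn, Malsu1 only without DSS + GAA replicate 5, and Dhx30 only without DSS + GAA replicate 4 or DSS replicate 2.

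Of 22 aminoacyl-tRNA synthetases and related enzymes, 1 rose and 0 fell. The one that rose was Kars, which serves both cytosol and mitochondria, with 190.3 ± 46.5 TPM in DSS + GAA and 129 ± 14 TPM in DSS (SD, n = 4 each; log2 fold change 0.53, limma adjusted p = 0.0396). Among the libraries left out in turn, Kars kept its call only without DSS + GAA replicate 1, and its limma adjusted p over 21 settings ran between 0.0118 and 0.0937. None of 20 genes of mitochondrial DNA replication and transcription passed, with 4 positive and 16 negative fold changes. The smallest p were those of Tfb2m (log2 fold change -0.55, limma adjusted p = 0.0526) and Ssbp1 (-0.42, limma adjusted p = 0.0696). Tfam, which packages mitochondrial DNA, had a log2 fold change of -0.14. Medians of these 4 lists ran between -0.21 and -0.10, against -0.12 for the members and -0.25 for all tested genes.

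Nuclear genes of the respiratory chain, the partners of the proteins that this ribosome makes, stood in another place. Of 82 tested, 34 were higher and 2 lower in DSS + GAA, beside 5.96% of all tested genes higher and 28.2% lower. Their median log2 fold change was 0.43. Cox7a1 had the smallest p of the list (log2 fold change 1.49, limma adjusted p = 0.00263). Its level was 41.7 ± 3.9 TPM in DSS + GAA and 14.2 ± 1.9 TPM in DSS (SD, n = 4 each). Cox7a2, a subunit of cytochrome c oxidase, had 763 ± 96 TPM in DSS + GAA and 481 ± 17 TPM in DSS (SD, n = 4 each; log2 fold change 0.66, limma adjusted p = 0.00818). Summed over the list, the DSS + GAA libraries held 20125, 26574, 30951 and 31489 TPM, against 19453, 19780, 20576 and 17698 TPM in the DSS libraries. DSS + GAA replicate 1 again lay lowest of its group, inside the DSS range, and the other 3 lay above it. Without that library, 64 of the list were called higher and 2 lower, beside 9.05% of all genes tested in that fit higher and 31.4% lower. The counterpart genes of the mitochondrial genome did not pass: 0 of 13 were higher and 0 lower with limma (median -0.42), and the smallest p was that of mt-Nd6 (log2 fold change -0.52, limma adjusted p = 0.0526). Cytosolic ribosomal proteins gave 0 higher and 0 lower calls among 46 large and 30 small subunit genes, with a median of -0.29 for each.

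Among 12 tested regulators of nuclear genes for mitochondria, 2 rose and 1 fell, beside 5.96% of all tested genes higher and 28.2% lower. Esrra, a nuclear receptor that drives respiratory chain genes, had 84.8 ± 16.3 TPM in DSS + GAA and 55.9 ± 3.2 TPM in DSS (SD, n = 4 each; log2 fold change 0.57, limma adjusted p = 0.0208). Ppargc1a, its coactivator, had 18.1 ± 8.7 TPM in DSS + GAA and 6.73 ± 1.69 TPM in DSS (SD, n = 4 each; log2 fold change 1.18, limma adjusted p = 0.0397). Yy1 fell, with 38.4 ± 3.8 TPM in DSS + GAA and 49.8 ± 5.6 TPM in DSS (SD, n = 4 each; log2 fold change -0.37, limma adjusted p = 0.0463). Gabpa (-0.30) and Nrf1 (-0.17) did not pass, and Myc had a log2 fold change of -0.78 (limma adjusted p = 0.0526). Esrra lost its call without DSS + GAA replicate 2, 4 or 5 or DSS replicate 1 (limma adjusted p 0.0511 to 0.0597). Ppargc1a kept its call among the libraries left out only without DSS + GAA replicate 1, and Yy1 only without DSS replicate 5. Over 21 settings, the limma adjusted p of Yy1 ran up to 0.690, and its log2 fold change stayed negative.

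**Figure D4:**
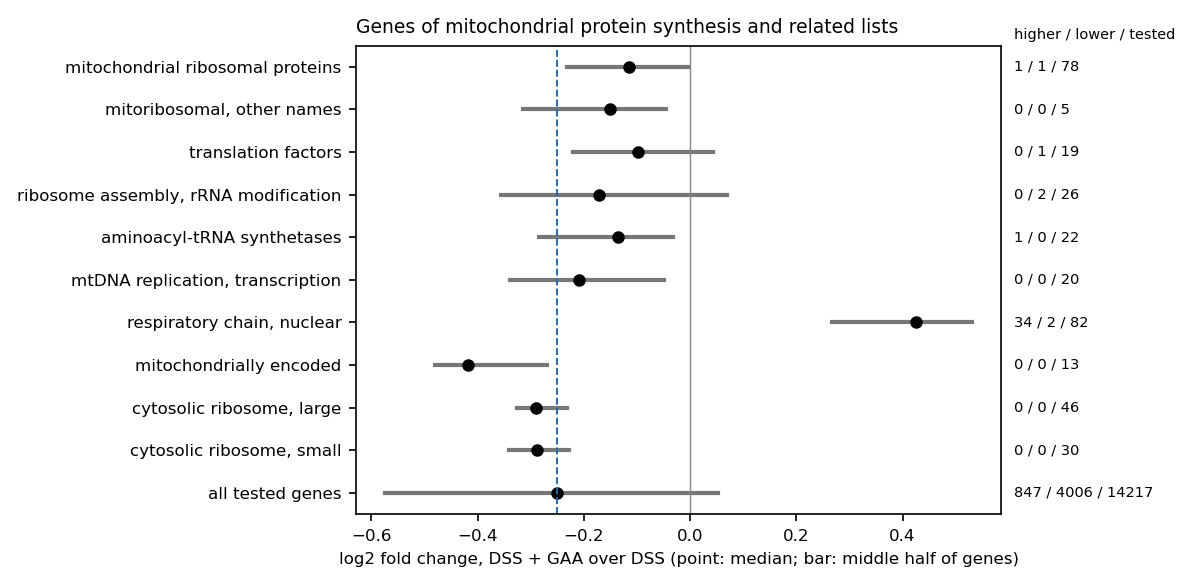
Median log2 fold change (point) and range of the 25th to 75th percentile (bar) of each list, DSS + GAA over DSS, with the counts called higher, called lower and tested on the right. The respiratory chain list has its median at 0.43, while the mitochondrial ribosomal proteins lie at -0.12 and all tested genes, marked by the dashed line, at -0.25.

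The sign of the family's median changed with the scaling of the libraries; on the TPM scale the median of all genes was itself below 0. Trimmed mean scaling moved the median of all genes to -0.00 and that of the members to 0.15, and called 4 members higher (Mrpl10, Mrpl14, Mrpl27 and Mrps21) and 1 lower (Mrpl52), beside 13.3% of genes higher and 11.6% lower. Quantile normalization put the members at 0.10, against 0.02 for all genes, with 3 higher and 1 lower, beside 11.8% and 11.3% of genes (23.1% in all). Median centring gave 0.19 and 0.05, with 4 members higher and 0 lower in limma, beside 15.2% of genes higher and 9.2% lower (24.4% in all). Relative to all tested genes, the members' median was higher by 0.14 on the TPM scale, by 0.15 under trimmed mean scaling and by 0.08 under quantile normalization. The respiratory chain list had a positive median under trimmed mean scaling, quantile normalization and median centring, between 0.44 and 0.73. Each of these 3 scalings also called Mrpl14 and Mrps21 higher.

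The authors' deposited table gave 3 members a false discovery rate under 0.05 as higher and 0 as lower, beside 10.3% of its genes higher and 16.2% lower. In the authors' deposited table the 3 were Mrps21 (log2 fold change 0.51, false discovery rate 0.0325), Mrpl14 (0.49, 0.0409) and Mrps36 (0.47, 0.0421). Mrpl52 had -0.91 with a false discovery rate of 0.102 in the authors' deposited table. In the same authors' deposited table, the 795 genes over 5 TPM with a p-value above 0.9 had a median log2 fold change of -0.29, so its largest p-values belong to fold changes below 0.

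**Figure D5:**
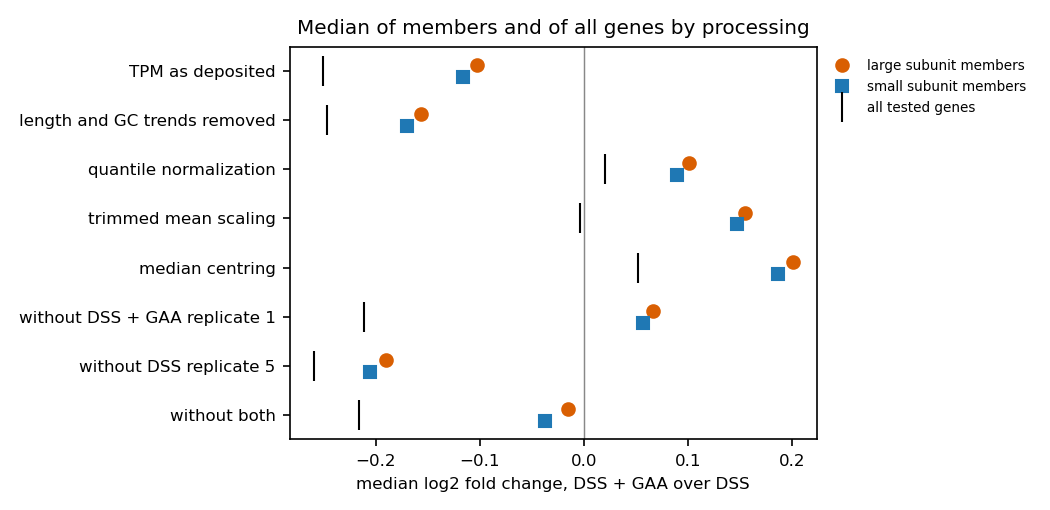
Median log2 fold change, DSS + GAA over DSS, of large subunit members, small subunit members and all tested genes under each processing. The members lie at -0.12 on the TPM scale and at 0.15 under trimmed mean scaling, and both subunits lie to the right of all genes in each row.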

How the data were processed

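Poly(A)-selected RNA of colon was sequenced in paired ends, per the labels' protocols. The authors deposited 1 table with TPM values per gene and library; TPM keeps no record of depth, so the depth of each library is unknown and no counting interval was given. The authors' deposited table also holds log2 fold changes, p-values and false discovery rates, whose test no source used here gives. Build mm10 is named per the submitters' processing notes, as are HISAT2, Bowtie2 and SAMtools, featureCounts and Subread, Trimmomatic, GATK and edgeR, without role or version. The treatment labels of the DSS + GAA libraries read 20, 21, 22 and 23 mg/kg, while titles and design give 20 mg/kg, so the libraries were kept as 1 group.

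A TPM of 1 or more in 4 or more of the 8 libraries was asked for testing (14217 of 18262 genes). These were compared with limma 3.58.1 in R 4.3.3 on log2(TPM + 1), with a pseudocount of 1, a single group term, and robust empirical Bayes with a variance trend. P-values are two-sided, with Benjamini-Hochberg adjustment over all tested genes and a threshold of 0.05. Fold changes on this scale understate the change of low genes. Exact permutation tests used the 70 assignments of the libraries. The test was checked on simulated data: over 14217 genes it recovered 6 of 100 genes changed by 0.5 and 50 of 100 changed by 1 on the log2 scale. Only these genes were changed there, whereas 34.1% of tested genes passed in the data. The Benjamini-Hochberg adjustment was thus stricter in simulation, and the recovered shares do not carry over to the data.

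Members and lists were chosen with earlier results of these data known. Members named in full are those that passed, the 3 highest and 3 lowest, those next to the threshold, the S18 homologs, Mrps30 and Mrps36. From other lists, some of the genes with the smallest p were named, with others as examples after their values were seen. Ddx41, Lyrm7 and Bola3 were taken off the assembly list after values were seen, since they are no assembly genes; none had passed. Subunits by structure and the presence of a bacterial counterpart were assigned from general knowledge of the mammalian mitochondrial ribosome. Coordinates are GENCODE's on GRCm38, and promoter windows are RefSeq's on GRCm38.p6. Alternatives were other pseudocounts, filters, scalings, variance settings, array weights, a replicate block, removal of length and GC trends, and leaving out each library.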

Additional observations from a re-analysis of the deposited data

Results flagged for a closer look

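Among the members named in full, and the TPM sum and mean log2(TPM + 1) of all members, 3 values stood apart from the other libraries of their group. All 3 were in DSS replicate 5, where the gap to the next library took up most of the group's range. Mrps18a had 27.5 TPM there, against 37.8 to 38.9 TPM in the other DSS libraries. Members not named in full are not listed, and some had a like gap. Mrps7, for example, had 29.5 TPM in DSS replicate 5, against 41.9 to 43.1 TPM in the other DSS libraries. The TPM sum of all members was 2752, against 3421 to 3497 in the other DSS libraries, and their mean log2(TPM + 1) was 4.89, against 5.19 to 5.21. In groups of 4, chance marks about 1 group in 20 this way, and the sum and the mean are made of the same genes. Proliferating cell markers were also lowest of the DSS group in that library, at 231 TPM, while smooth muscle markers were the highest there, at 5237 TPM, against 1895 to 3058 TPM in the other DSS libraries. Goblet cell markers (18051 TPM) and colonocyte markers (9300 TPM) were highest of DSS there too, while fibroblast markers (1474 TPM) were the lowest. The part of any of these in the values was not tested.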

How the results depend on the processing

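Under 24 alternatives the members' median log2 fold change stayed between -0.22 and 0.19. The large minus small difference in mean log2 level, taken as DSS + GAA minus DSS, stayed between -0.02 and 0.01. Median centring gave a median of 0.19. The counts of members called higher and lower were 2 and 3 with array quality weights (2 of them small subunit members, beside 1165 and 5391 of 14217 genes), 0 and 5 after length and GC trends were removed (2 small), 4 and 0 with median centring (1 small), 3 and 1 with quantile normalization (1 small), 4 and 1 with trimmed mean scaling (4 large, 1 small), 3 and 1 with both low libraries left out (2 small), and 3 and 0 in the authors' deposited values (1 large, 2 small). Leaving out each library in turn gave 0 to 3 members higher, 1 lower, 1 to 2 large subunit members and 0 to 2 small subunit members. Beside these, 361 to 1277 genes were higher and 1676 to 4435 lower, of 13947 to 14167 tested. Whether the replicate numbers pair the samples could not be told from the r of same-numbered deviations (0.18, -0.11, 0.15 and -0.03). Between different numbers, r ran between -0.17 and 0.15. The replicate block gave 1 member higher and 1 lower, beside 679 and 3340 of 14217 genes. With length and GC trends removed as well, it gave 0 higher and 1 lower, a large subunit member, beside 663 and 3334 of 14173 genes.

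Signs turned for members near 0. Leaving out each library in turn gave -0.0492 to 0.38 for Mrpl42, -0.20 to 0.0727 for Mrpl57, -0.12 to 0.15 for Mrps16 and -0.31 to 0.0222 for Mrps18a. Median centring gave 0.22 for Mrpl57, 0.30 for Mrps16, 0.12 for Mrps18a, 0.0279 for Mrps18c and 0.23 for Mrps6. Quantile normalization gave 0.30 for Mrpl57, 0.37 for Mrps16, 0.0269 for Mrps18a and 0.0141 for Mrps26. Trimmed mean scaling gave 0.15 for Mrpl57, 0.24 for Mrps16, 0.0786 for Mrps18a and 0.20 for Mrps6. Mrpl57 was 0.0208 with array weights, and Mrps16 was 0.15 without both low libraries and 0.00434 with a pseudocount of 5. The cause of these changes was not tested. Depth is unknown. In simulation few changes of 0.5 were recovered with 4 libraries a group, but far fewer genes changed there than passed in these data.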
